A study of Arabidopsis thaliana with 8 samples.

Results

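The mRNAs described here encode the nuclear subunits of mitochondrial complex I of Arabidopsis, including its carbonic anhydrase-like subunits. They were taken from a list of 40 AGI loci, and the probe-to-gene annotation assigned a probe set of their own to 27 of them, of 13288 genes with such a probe set on the array. Another 2 loci, AT3G18410 and AT1G49140, share 1 joint probe set and are not described, and 11 have no assigned probe set here. Every one of the 27 probe sets passed the filter on low signal, and their mean signals lay between percentiles 82.7 and 98.8 of all probe sets. They include 1 carbonic anhydrase-like subunit, 2 core and 7 accessory subunits of the matrix arm, 12 accessory subunits of the membrane arm and 5 subunits placed in neither arm here.

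The study asked how polysome loading of mRNAs depends on eIF3h, a subunit of the initiation factor eIF3. Aerial parts of wild-type (WT) seedlings and of seedlings of the eif3h-1 mutant (eif3h), in which a T-DNA insertion in the eIF3h gene leads to a protein shortened at its carboxyl end, were harvested after 10 days in continuous light. Both genotypes grew on sucrose-supplemented medium, and eif3h is represented by this single allele. Extracts were separated on sucrose gradients, and RNA from polysomal fractions (PL) and from non-polysomal fractions (NP) was hybridized to ATH1 arrays. These were 8 arrays, from 2 gradients per genotype. The study also followed transcript levels with total RNA on further arrays, which were not used here. As translation state the log2 ratio of PL to NP signal was taken, and the change of translation state is that in eif3h minus that in WT. A comparison of 1 fraction between genotypes reads the amount of mRNA per array total, in which the level of an mRNA and its loading cannot be told apart.

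Complex I, NADH:ubiquinone oxidoreductase, is the entry point of electrons from NADH into the mitochondrial respiratory chain. Its matrix arm carries the flavin and the iron-sulphur clusters that pass electrons to ubiquinone, and its membrane arm pumps protons. Core subunits catalyse these steps, whereas accessory subunits surround them and serve in assembly and stability. In plants a domain of gamma-carbonic anhydrases and related proteins is attached to the matrix side of the membrane arm. Part of the core, the nad genes, is encoded in the mitochondrion and translated there, whereas the mRNAs described here are translated on cytosolic ribosomes. Names such as NDUFA8 below are those of the mammalian counterparts.

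The median signal lay between 185.8 and 277 over the 8 arrays and was lower in PL than in NP of the same gradient. The mRNA of the mutated gene, AT1G10840 (TIF3H1), had PL signals of 1277 and 1149 in WT against 213 and 192 in eif3h, a difference of -2.58 on the log2 scale (adjusted p = 0.000357), whereas its NP signals differed by -0.01. Where its probes lie along the gene was not examined, so that this value does not check the labels. Of the marker lists, 3 leaf genes (RCA, LHCB4.1 and LHCB4.2), the root gene PYK10 and the guard cell gene FMA could be measured, and the seed markers had no assigned probe set. The leaf genes had changes of translation state between 0.71 and 1.11 and lower means in eif3h in both fractions, with medians of -0.16 in PL and -1.12 in NP. In PL only LHCB4.2 was clearly lower (-1.63, adjusted p = 0.0016). RCA (-0.09) and LHCB4.1 (-0.16) had replicate pairs of opposite sign there. PYK10 and FMA had changes of -0.15 and -0.55. The part of these values in the results below was not tested. Within a scan day the WT and eif3h arrays were run in separate sessions, so that session and genotype cannot be told apart.

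The mRNAs of complex I subunits were more abundant in polysomal RNA of eif3h than of WT. In PL, 26 of 27 had a higher mean in eif3h, against 46% of all 11373 tested probe sets and 51% of the 3936 probe sets with a mean signal not below that of the weakest member. The median difference was 0.63 on the log2 scale, compared with -0.06 over all tested probe sets. In NP the same mRNAs were divided, with 13 higher (56.8% of all) and 14 lower in eif3h and a median difference of -0.13 (0.10 over all tested probe sets). The direction of this NP median is not settled, since it was 0.09 and 0.03 in the separate replicate pairs, 0.04 after quantile normalization, and 0.05 and 0.13 without eif3h replicate 1 and 2. Their translation state was accordingly higher in eif3h for 24 of 27, against 40.8% of all tested probe sets and 58.2% of those with comparable signal. The median change was 0.53, whereas it was -0.12 over all tested probe sets and 0.11 over those with comparable signal.

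The count in PL was little affected by the scaling of the arrays. It was 25 of 27 after quantile normalization and 26 of 27 after median centring, with 50.6% and 54.9% of all tested probe sets higher in eif3h. The count of positive changes in translation state was more dependent on it, at 17 of 27 after quantile normalization (50.2% of all) and 26 of 27 after median centring (68.1% of all). The median change over all tested probe sets was 0.00 after quantile normalization and 0.24 after median centring, and relative to it the complex I median was 0.34 and 0.66, as against 0.66 in the deposited scaling. Leaving out single gradients gave 24 to 26 of 27 in PL and 19 to 25 of 27 for the translation state.

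**Figure D1:**
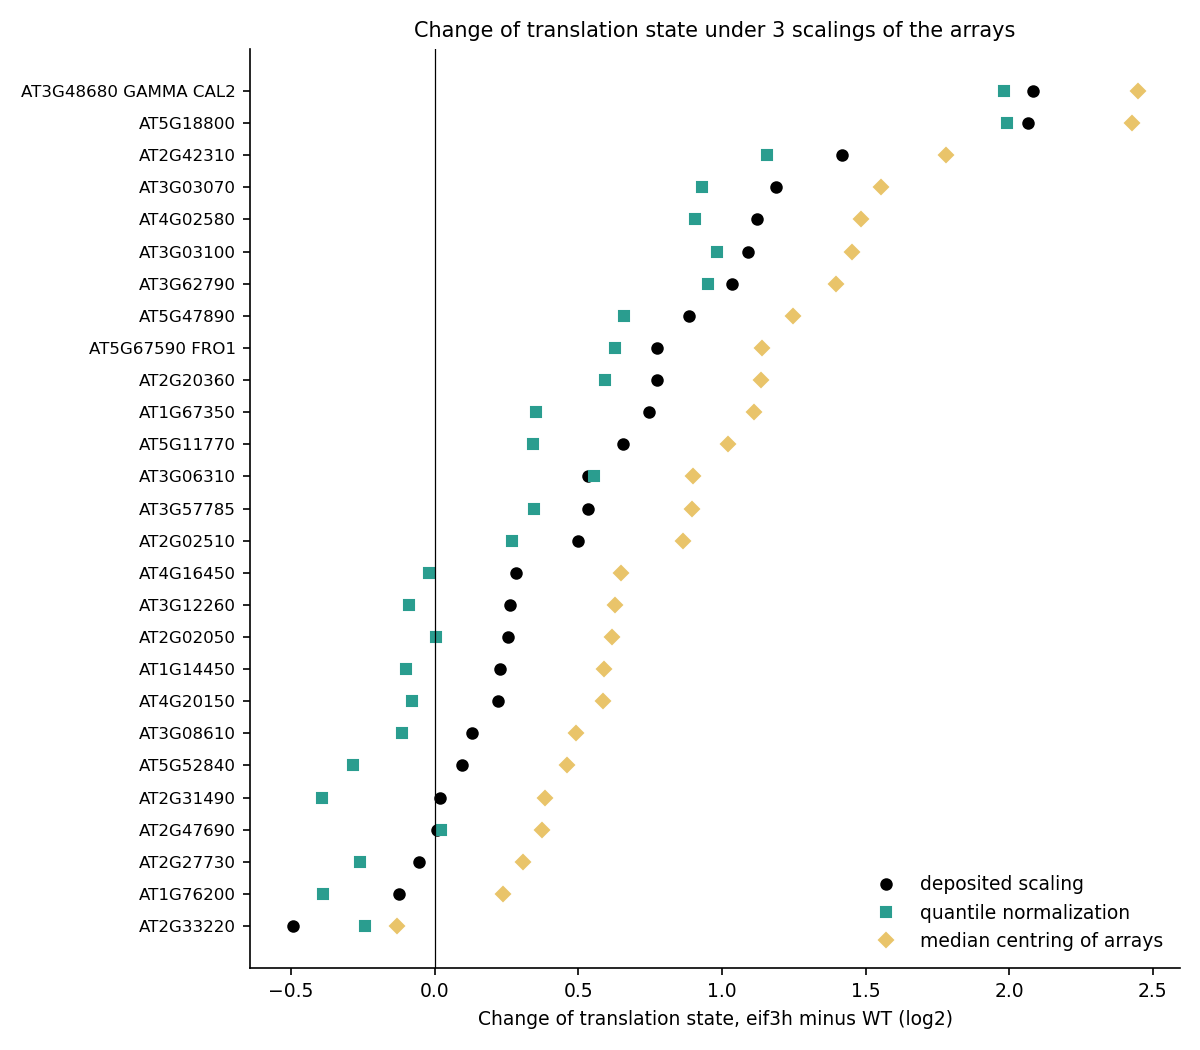
Change of translation state (log2, eif3h minus WT) of the 27 subunit mRNAs in the deposited scaling (circles), after quantile normalization (squares) and after median centring of the arrays (diamonds). The 7 highest mRNAs stay above 0.9 under every scaling, whereas 9 of the mRNAs in the lower part of the plot take a different sign under at least 1 of the other scalings.

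The largest differences were found for 2 mRNAs, with changes that were nearly equal. AT5G18800 encodes a counterpart of NDUFA8, an accessory subunit of the membrane arm that faces the intermembrane space. Its NP signals were 2524 and 2454 in WT and 1095 and 965 in eif3h. Its PL signals were 1518 and 1362 in WT and 2753 and 2244 in eif3h. The order of the fractions was thus turned around, and in neither fraction did the genotypes overlap. The translation state rose from -0.79 in WT to 1.27 in eif3h, a change of 2.07 (4.19-fold, SE 0.26, 2 gradients per genotype, adjusted p = 0.0464), with 2.06 in the replicate 1 pair and 2.07 in the replicate 2 pair. AT5G18800 was the only subunit mRNA past the test of the change, against 0.0176% of all tested probe sets in this direction, and none passed downward (0.0352% of all). Among all 27, 11 had an unadjusted p under 0.05, each of them upward, against 6.02% of all tested probe sets. The value of AT5G18800 was 2.12 and 2.01 without WT replicate 1 and 2, and 2.01 and 2.12 without eif3h replicate 1 and 2. The call was lost without either WT replicate. Without an eif3h gradient the remaining spread came from WT alone, and many more probe sets of the whole array passed. Without a WT gradient it came from eif3h alone. Neither kind of fit can therefore decide how firm a call is, here or below.

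In the separate fractions, AT5G18800 rose in PL by 0.79 (SE 0.18, adjusted p = 0.025) and fell in NP by 1.28 (SE 0.18, adjusted p = 0.0035). It was the only subunit past the test upward in PL and downward in NP, which held for 0.0352% of all tested probe sets. The PL call was lost without WT replicate 1 (0.75) and without WT replicate 2 (0.83). Across all settings the NP difference ran from -1.53 to -1.18.

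The second NDUFA8 gene, AT3G06310, did not share this pattern. Its signals were 533 and 415 in WT NP, 842 and 691 in WT PL, 874 and 558 in eif3h NP, and 1863 and 1445 in eif3h PL. The mRNA already had more signal in PL than in NP in WT, with a translation state of 0.70 (adjusted p = 0.0266), and had a state of 1.23 in eif3h. The call of the WT state was lost without the replicate block (adjusted p = 0.147). It was also lost without WT replicate 1 (0.73) or WT replicate 2 (0.66). Its change was 0.53 (SE 0.28, adjusted p = 0.412). In PL it rose by 1.10 (SE 0.20, adjusted p = 0.0097), the highest PL difference among the subunits, and in NP it differed by 0.57 (adjusted p = 0.0757). Without WT replicate 1 the PL value was 0.99 (adjusted p = 0.0596). The pair therefore differed in the direction of the NP value, a difference that was not tested between the genes.

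GAMMA CAL2 (AT3G48680) encodes a carbonic anhydrase-like protein of the plant-specific domain and is the only gene of that domain with a probe set of its own here. Its NP signals were 3051 and 5255 in WT, and 1446 and 1476 in eif3h. Its PL signals were 1269 and 1235 in WT, and 1867 and 2007 in eif3h. The genotypes did not overlap in either fraction, with WT NP replicate 2 well above replicate 1. In WT the translation state was -1.68, the second lowest of the subunits, and in eif3h it was 0.41. The change of 2.08 (4.24-fold, SE 0.33) was 1.63 in the replicate 1 pair and 2.53 in the replicate 2 pair, and did not pass with the replicate number as the block (adjusted p = 0.0831). With each gradient as its own block it passed (adjusted p = 0.0068). In NP the mRNA fell by 1.45 (SE 0.24, adjusted p = 0.0055), and in PL it differed by 0.63 (adjusted p = 0.11).

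With the gradient as the block, 4 subunit mRNAs passed the test upward, against 1.02% of all tested probe sets, and none downward (0.615%). Besides AT5G18800 (adjusted p = 0.0035) and GAMMA CAL2 these were AT2G42310 and AT4G02580. AT2G42310 encodes a counterpart of NDUFB11, an accessory subunit of the membrane arm. It was the most strongly non-polysomal subunit mRNA of WT, with NP signals of 4235 and 5985 and PL signals of 1785 and 1331. In eif3h its NP signals were 3987 and 3527 and its PL signals 3291 and 2855. The PL signals of the genotypes were separate and the NP signals of eif3h lay just below those of WT. The state was -1.71 in WT (adjusted p = 0.0015) and -0.29 in eif3h, a change of 1.42 (SE 0.34, adjusted p = 0.175, and 0.0373 with the gradient as the block). In PL it rose by 0.99 (adjusted p = 0.0279). Without WT replicate 2 the change of AT2G42310 was 0.96 and the PL difference 0.88 (adjusted p = 0.0515). The other NDUFB11 gene, AT3G57785, had a state of -0.33 in WT and 0.20 in eif3h and a change of 0.53 (adjusted p = 0.425), which was 0.83 without WT replicate 1 and 0.24 without WT replicate 2. It rose in PL by 0.75 (adjusted p = 0.044). The PL call of AT3G57785 was lost without either WT replicate, with 0.95 and 0.54 on the log2 scale.

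**Figure D2:**
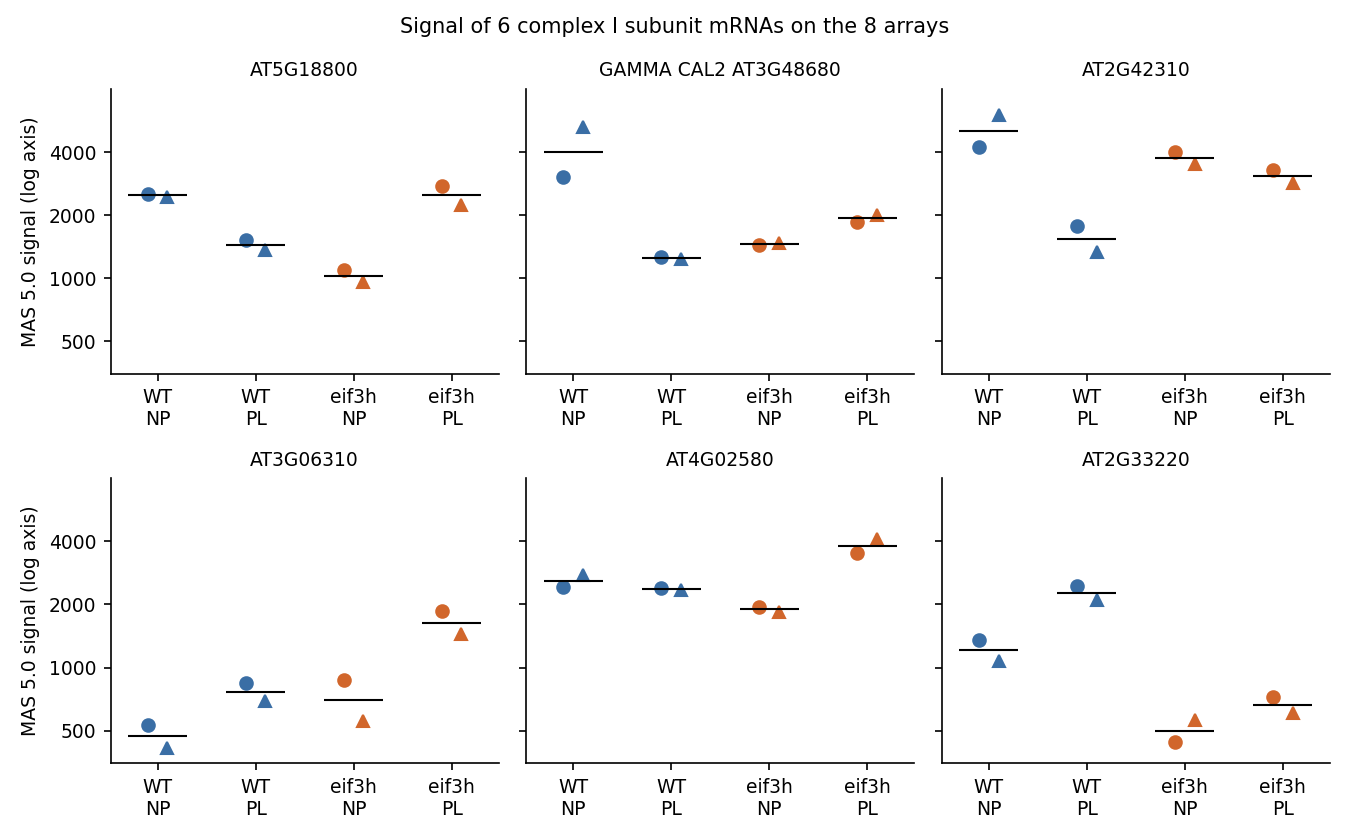
MAS 5.0 signals (log axis) of 6 subunit mRNAs on the 8 arrays. Blue marks WT and orange eif3h, circles are replicate 1 and triangles replicate 2, and the bars are geometric means of 2 arrays. AT5G18800 and GAMMA CAL2 had NP above PL in WT and PL above NP in eif3h, and AT2G33220 was lower in eif3h in both fractions.

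Only 2 core subunits of the matrix arm, which carry iron-sulphur clusters, could be measured. AT4G02580, the 24 kDa subunit (NDUFV2), belongs to the module that takes up electrons from NADH. Its signals in WT were nearly level, at 2411 and 2749.5 in NP and 2407 and 2355 in PL. In eif3h NP was lower, at 1950.1 and 1838, and PL was higher, at 3518 and 4122, without overlap between genotypes. The state was -0.11 in WT and 1.01 in eif3h, a change of 1.12 (SE 0.27, adjusted p = 0.172, and 0.0445 with the gradient as the block). In PL it rose by 0.68 (adjusted p = 0.0446), a call lost without WT replicate 1 (0.73, adjusted p = 0.121) or WT replicate 2 (0.63, adjusted p = 0.148). AT5G11770, the PSST subunit (NDUFS7) next to the ubiquinone site, had a state of 0.63 in WT and 1.28 in eif3h. Its change of 0.66 (SE 0.36, adjusted p = 0.433) was uneven, at 0.25 in the replicate 1 pair and 1.07 in the replicate 2 pair, and its NP signals overlapped between genotypes.

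The 7 accessory subunits of the matrix arm all had a positive change (40.8% of all tested probe sets), with a median of 0.77. After quantile normalization AT3G12260 and AT5G52840 were at -0.09 and -0.29. None passed the test of the change, and 5 of 7 had an unadjusted p under 0.05, each upward, against 6.02% of all tested probe sets in this direction. AT3G03070 (NDUFS6) had the highest value, with a state of 0.08 in WT and 1.27 in eif3h and a change of 1.19 (SE 0.31, adjusted p = 0.198). Its NP signals were 3245 and 3727 in WT and 2210 and 1917 in eif3h, and it fell in NP by 0.76 (adjusted p = 0.043), a call lost without WT replicate 2 (-0.55, adjusted p = 0.166). AT3G03100 (NDUFA12) had a change of 1.09, AT5G47890 (NDUFA2) of 0.89, and FRO1 and AT2G20360 (NDUFA9) of 0.77 each. FRO1 (AT5G67590), the NDUFS4 counterpart, in Arabidopsis first described from a mutant with impaired cold-regulated gene expression, was loaded in WT (1.03, adjusted p = 0.004) and reached the highest state of all subunits in eif3h, 1.80 (adjusted p = 0.0003). AT5G47890 had a state of -1.12 in WT (adjusted p = 0.0029) and of -0.23 in eif3h (adjusted p = 0.34), the latter 0.28 after median centring. AT3G12260 (NDUFA6) and AT5G52840 (NDUFA5) were strongly loaded in both genotypes, with states of 1.06 and 1.62 in WT and 1.32 and 1.71 in eif3h.

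The 12 accessory subunits of the membrane arm were the most varied group, with changes from -0.49 to 2.07 and a median of 0.38. Differences between paralogues were not tested. Of the NDUFS5 genes, AT3G62790 had a state of -0.25 in WT and 0.79 in eif3h, a change of 1.03 (SE 0.34, adjusted p = 0.245), whereas AT2G47690 was at -0.57 and -0.56 (change 0.01). The replicates of AT3G62790 differed in level, with WT NP signals of 2087 and 877 and eif3h NP signals of 2223 and 645.6, but each pair moved upward, by 0.76 and 1.31. It rose in PL by 0.86 (adjusted p = 0.0467), a call lost without WT replicate 1 (0.65) or WT replicate 2 (1.06, adjusted p = 0.0591). The NDUFB3 genes AT1G14450 and AT2G02510 had similar states, at -0.71 and -0.73 in WT and -0.48 and -0.23 in eif3h, with changes of 0.23 (-0.10 after quantile normalization) and 0.50. The change of AT2G02510 was 0.0303 without eif3h replicate 1 and 0.97 without eif3h replicate 2. AT1G14450 rose in PL by 1.02 (adjusted p = 0.0437), but with 1.62 in the replicate 1 pair and 0.41 in the replicate 2 pair, and the call was lost without WT replicate 1 (0.67) or eif3h replicate 1 (0.55). AT2G02050 (NDUFB7), AT3G08610 (NDUFA1) and AT1G76200 (NDUFB2) had changes of 0.25, 0.13 and -0.13, of which the second was -0.12 after quantile normalization and the third 0.24 after median centring. The PL and NP signals of AT3G08610 were nearly equal in WT, at 6579.8 and 7264 in PL and 6585 and 6948 in NP.

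AT2G33220, a counterpart of NDUFA13, was the exception to the higher PL signals. Its PL signals were 2454 and 2095 in WT and 722 and 610.1 in eif3h. Its NP signals were 1353 and 1078 in WT and 441 and 563 in eif3h. All eif3h values were below all WT values. It fell by 1.77 in PL (SE 0.22, adjusted p = 0.0024) and by 1.28 in NP (SE 0.22, adjusted p = 0.0072). Across all settings it stayed lower in eif3h, from -1.91 to -1.63 in PL and from -1.59 to -0.96 in NP. It was the only subunit past the test downward in PL, against 7.61% of all tested probe sets, and the only one past it downward in both fractions (3.79% of all). The state of AT2G33220 was 0.91 in WT and 0.41 in eif3h, a change of -0.49 (SE 0.32, adjusted p = 0.494), the lowest of the 27. MEE4, the other NDUFA13 gene of the list, had no assigned probe set here.

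The 5 subunits placed in neither arm here had positive mean states in both genotypes, with medians of 1.02 in WT and 1.30 in eif3h. Upward, 3 of 5 passed the test of the state in WT (15% of all tested probe sets) and 4 of 5 in eif3h (16.9% of all). AT2G31490 was at -0.0874 and 1.31 in the WT gradients. AT4G20150, AT2G31490 and AT2G27730 rose in NP, by 0.72, 0.98 and 0.88 (adjusted p = 0.0397, 0.0486 and 0.0261), the 3 upward NP calls among the subunits (8.45% of all tested probe sets). None of the 3 passed after median centring, where the values were 0.46, 0.73 and 0.62, and they were lost without WT replicate 1 (AT4G20150, 0.48) or WT replicate 2 (AT2G31490, 0.68, and AT2G27730, 0.62). AT4G20150 and AT2G27730 also rose in PL, by 0.94 and 0.82, the only subunits upward in both fractions (2.71% of all). The signals of AT4G20150 were 3199 and 3720.1 in WT NP, 7482 and 7396 in WT PL, 6105 and 5259 in eif3h NP, and 15811 and 12829 in eif3h PL. Because both fractions moved alike, the changes of AT4G20150 and AT2G27730 were 0.22 and -0.06, of which the first was -0.08 after quantile normalization and the second 0.31 after median centring. AT1G67350 rose in PL by 0.88 (adjusted p = 0.0148), from 3710.0 and 3756 to 6874 and 6883, at an NP difference of 0.13. Its PL call was lost without WT replicate 1 (adjusted p = 0.0705) or WT replicate 2 (adjusted p = 0.0506). AT4G16450 had PL signals of 5303 and 4381 in WT and 5635 and 4229 in eif3h, which overlapped (difference 0.02).

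**Figure D3:**
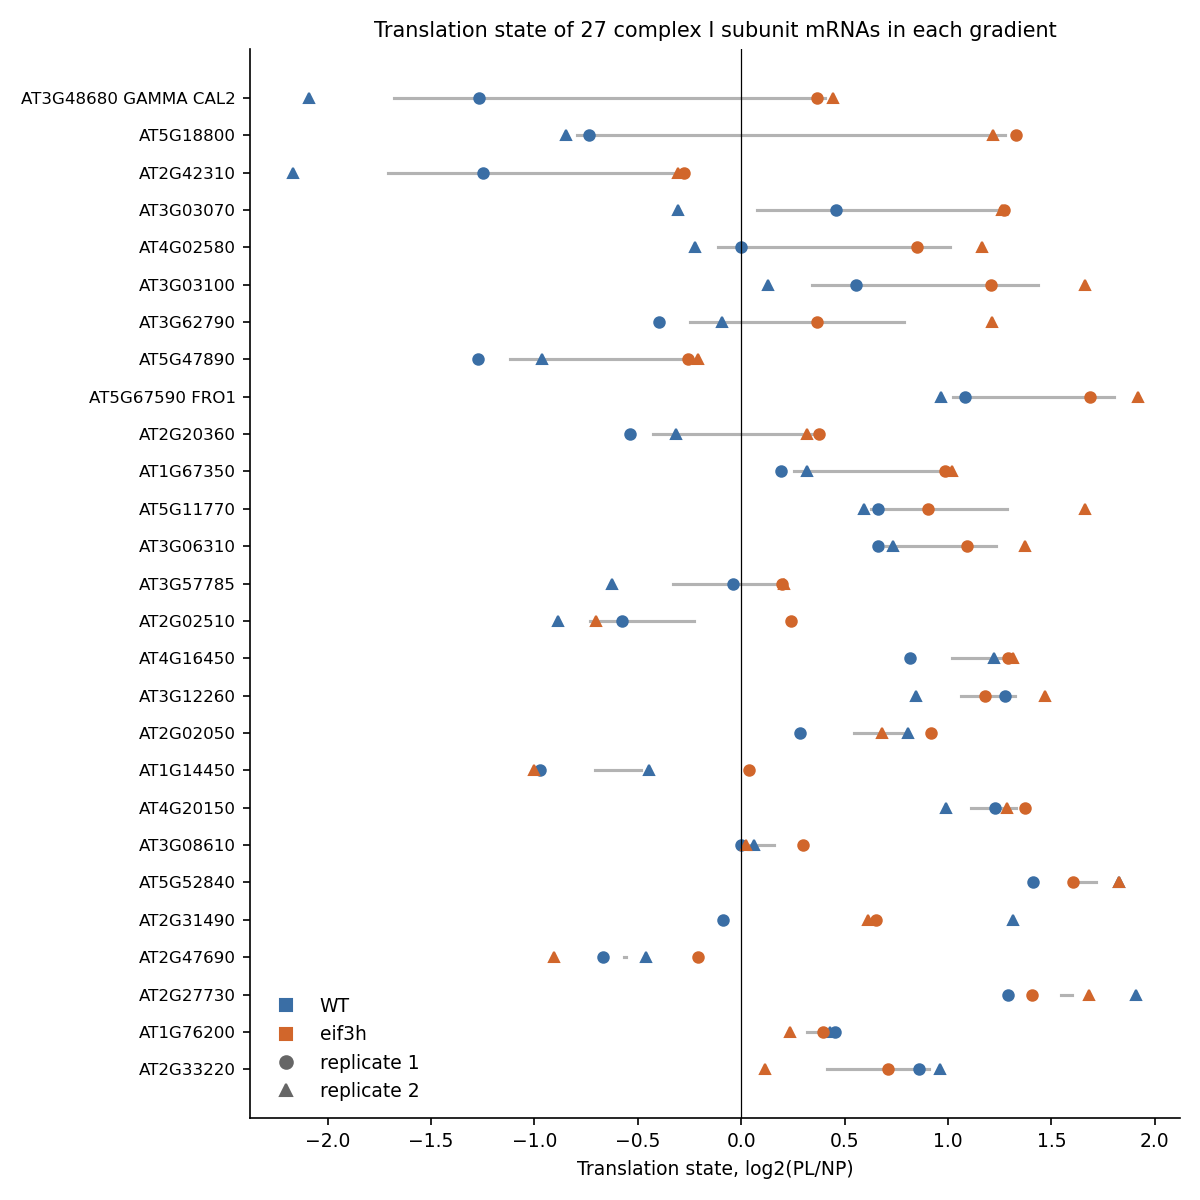
Translation state, log2(PL/NP), of the 27 subunit mRNAs in each gradient, ordered by their change. Blue marks WT and orange eif3h, circles are replicate 1 and triangles replicate 2, and grey lines join the genotype means. The WT points span -2.17 to 1.91, and the mRNAs furthest to the left in WT lie to the right of their WT points in eif3h.

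In WT the subunit mRNAs differed widely in translation state, from -1.71 for AT2G42310 to 1.62 for AT5G52840. Upward, 8 of 27 passed the test (15% of all tested probe sets), led by AT5G52840, AT2G27730 (1.60), AT4G20150 (1.11) and AT3G12260 (1.06). Downward, 5 passed (15.1% of all), namely AT2G42310, GAMMA CAL2, AT5G47890, AT5G18800 and AT2G02510. The call of AT2G02510 was lost after median centring, without the signal filter, the replicate block or the variance trend, and without either WT replicate. That of AT5G18800 was lost without either WT replicate. Ordered by the WT state, 22 of 26 neighbouring pairs lay closer together than 1 standard error (0.18 to 0.29). AT2G42310 and GAMMA CAL2 differed by less than their replicates did. In eif3h 15 passed upward (16.9% of all) and none downward (22.2% of all). The median state in eif3h was 0.80 over the subunits, 0.23 over probe sets of comparable signal and -0.16 over all tested probe sets. The standard deviation of the states over the 27 mRNAs was 0.90 in WT and 0.70 in eif3h, whereas over all tested probe sets it was 0.78 and 0.88. By gradient the values for the 27 were 0.84 and 1.03 in WT and 0.58 and 0.86 in eif3h, so that the genotypes overlapped. All 11 mRNAs with a negative state in both WT gradients had a higher state in eif3h, with a median change of 0.89, and of the 13 with a positive state in both WT gradients 10 did, with a median of 0.26. This split uses the WT states that also enter the change, so that it is given as a description.

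By gradient, 16 of 27 mRNAs had both eif3h states above both WT states, against 19.8% of all tested probe sets, and 2, AT1G76200 and AT2G33220, had both below (32.2% of all). For 6 of 27 the state was negative in both WT gradients and positive in both eif3h gradients (3.22% of all), and for none was the order opposite (5.98% of all). The 6 were AT5G18800, GAMMA CAL2, AT4G02580, AT3G62790, AT2G20360 and AT3G57785. The zero of the state is set by the scaling, and the count was 5 after quantile normalization (4.12% of all) and 5 after median centring (7.49% of all), of which 5 and 3 were among these 6. The study's rule of a mean change over 2-fold with similar replicates took 6 upward (1.92% of all) and none downward (3.22% of all). Neither these counts nor those past the tests were set against probe sets of comparable signal. Over those the median change was 0.11, against -0.12 over all tested probe sets.

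The genotype differences in the separate fractions showed how these changes were composed. In PL, 10 of 27 subunit mRNAs rose past the test (5.92% of all tested probe sets) and 1 fell. The 10 were AT3G06310, AT1G14450, AT2G42310, AT4G20150, AT1G67350, AT3G62790, AT2G27730, AT5G18800, AT3G57785 and AT4G02580, with values from 0.68 to 1.10. This count moved strongly with single gradients. It was lower without either WT replicate and higher without either eif3h replicate, as was the count over all tested probe sets. Among the subunits it was 3 after quantile normalization and 15 after median centring. Over all 11373 tested probe sets the counts were 481 and 898, against 673 in the deposited scaling. In NP, 3 rose and 4 fell (8.65% of all), the latter being GAMMA CAL2, AT5G18800, AT2G33220 and AT3G03070. For 13 of 27 the mean was higher in PL and lower in NP in eif3h, against 11% of all tested probe sets and 16.9% of those with comparable signal. For another 13 it was higher in both fractions (35.1% of all), for 1 lower in both (32.3% of all), and for none lower in PL and higher in NP (21.7% of all). After quantile normalization the first of these counts was 10 (15.1% of all) and after median centring 17 (25.2% of all).

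**Figure D4:**
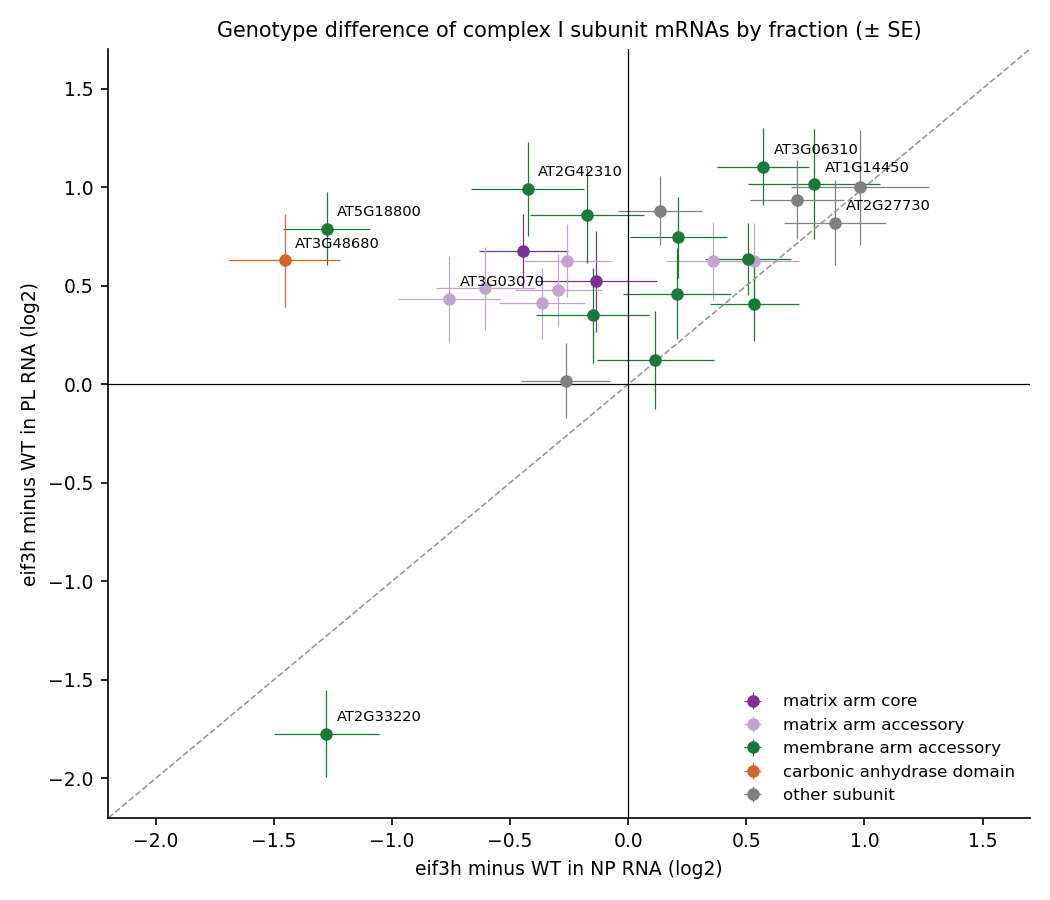
Difference between eif3h and WT in PL (vertical) against that in NP (horizontal) for the 27 subunit mRNAs (log2, fitted value ± SE), coloured by the part of the complex. Points above the dashed line of equal values have a positive change of translation state, and AT5G18800 and GAMMA CAL2 at the left and AT2G33220 at the bottom stand apart from the others.

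Nuclear genes of the other respiratory complexes had a similar direction in PL. Of 41 listed genes of complexes II to V and cytochrome c 25 could be tested. All 25 had a higher mean in eif3h PL (46% of all tested probe sets) and 12 rose past the test (5.92% of all), with a median difference of 0.74. In NP 20 of 25 were higher (56.8% of all) and 6 rose (8.45% of all), with a median of 0.33. Of the 25, 20 had a positive change of translation state (40.8% of all), with a median of 0.39. With the replicate number as the block none was past the test, and AT2G47380, a subunit of cytochrome c oxidase, had the highest change at 1.09 (SE 0.27, adjusted p = 0.18, and 0.0479 with the gradient as the block). AT5G57815, also of cytochrome c oxidase, followed at 0.86 (adjusted p = 0.273). Whether the lists differ was not tested. The alternative NAD(P)H dehydrogenases, which bypass complex I, were covered by 3 tested probe sets, with changes from -0.16 (NDC1) to 0.03, and NDB1 at -0.06. GLDH, an enzyme of ascorbate synthesis also needed for complex I assembly, had a change of -0.33. None of these passed the test.

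The mitochondrially encoded nad mRNAs, whose ribosomes are those of the organelle, had the opposite distribution. Of 15 probe sets for 8 nad genes, of which 7 were for nad1, 13 had more signal in NP than in PL in every gradient. Only 3 were bright enough to be tested. The share of all probe sets with this pattern was not counted. Without the signal filter, 43.7% of all 22746 probe sets had a positive state in WT and 32.9% in eif3h. The nad4 probe set had NP signals of 2407 and 2062 in WT and 11629 and 8798 in eif3h, and PL signals of 567 and 631 in WT and 889 and 1854 in eif3h. It rose in NP by 2.18 (adjusted p = 0.0036), and its PL difference was 1.10 (adjusted p = 0.0507). Its log2 PL/NP was -1.90 in WT and -2.98 in eif3h, a change of -1.08 (SE 0.45, adjusted p = 0.319). The brighter nad1 probe set had states of -3.28 and -4.14, a change of -0.87 (adjusted p = 0.555). Its PL signals were low, at 44.3 and 110.2 in WT and 56.6 and 49.7 in eif3h. The 20th percentile of the PL arrays was 34.8 to 45.8. The other tested nad1 probe set, of similar mean signal, had less extreme states of -1.78 in WT and -2.53 in eif3h, a change of -0.75 (adjusted p = 0.455). How well such RNAs are captured by the labelling used for the arrays was not tested.

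**Figure D5:**
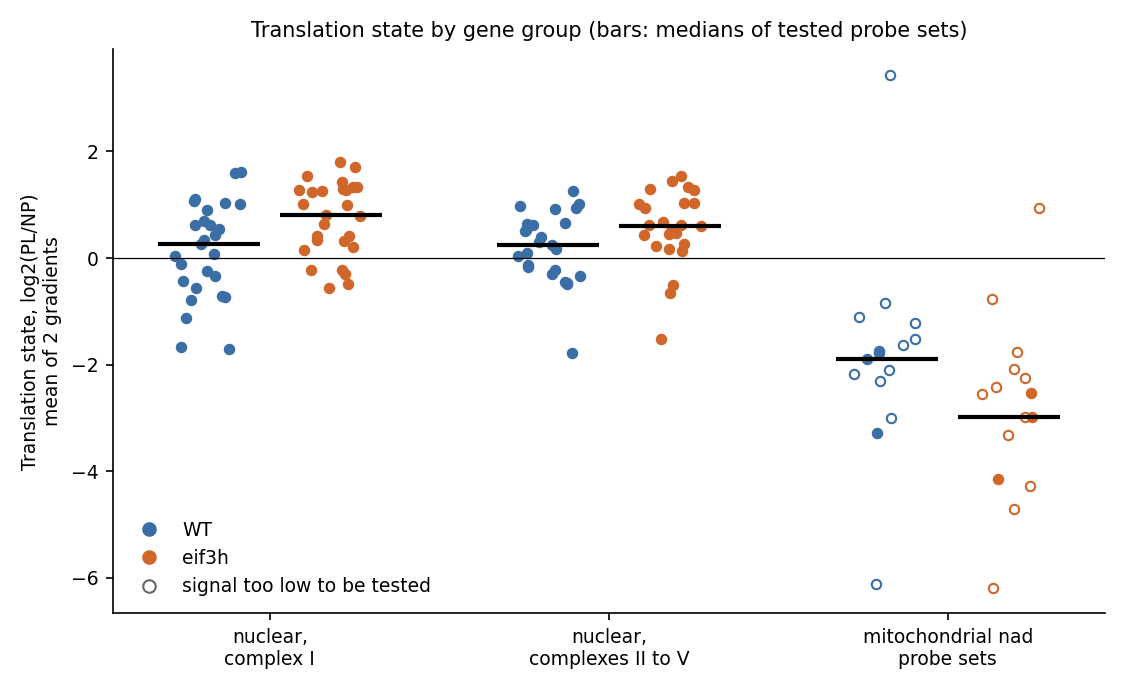
Translation state (log2(PL/NP), mean of 2 gradients) of nuclear complex I subunits, nuclear subunits of complexes II to V with cytochrome c, and probe sets of mitochondrial nad genes, in WT (blue) and eif3h (orange). Bars are medians of tested probe sets and open circles are probe sets with too little signal to be tested. Both nuclear groups centre above 0 and the tested nad probe sets lie between -1.7 and -4.2.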

How the data were processed

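The 8 ATH1 arrays carried RNA of independent preparations, 2 per group, made on different days. The authors corrected the background and scaled each array in Affymetrix MAS 5.0, and the deposited values are linear signal intensities, with a trimmed mean of 500.037 to 500.058 on every array (2% left out at each end). No use was made of detection calls. Probe sets were named through the platform's gene table and RefSeq, which was used for names alone. The 22746 probe sets other than the 64 controls comprised 13513 with a single gene there, 503 with several and 8730 with none. The probe set of GAMMA CAL2 came with the list of subunits and that of TIF3H1 from the study's gene list, and every subunit had 1 probe set.

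Log2 signals were used with no offset, for the upper 50% of probe sets by mean (11373). A single limma fit (version 3.58.1 in R 4.3.3, lmFit and eBayes with a variance trend) covered all arrays, with 4 groups, blocked on the replicate number. Tests were two-sided, with Benjamini-Hochberg adjustment over all 11373 probe sets and a threshold of 0.05. With so few arrays the precision is limited. The replicate numbers pair the samples. Each marks its own day of preparation and of scanning and its own scanner in the file headers and the study's methods. Replicate deviations correlated with r from 0.33 to 0.40 between groups of different genotype. Between PL and NP of the same genotype r was higher, at 0.52 in eif3h and 0.68 in WT. The replicate block does not model this closer pairing within a gradient. A second fit took each gradient as a block, for the translation states and their change. The scripts were tested on simulated data.

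The members, the other gene lists and the tests were chosen with earlier results of these data known, so no list was tested, and lists are described by counts and medians beside those of all tested probe sets. The comparison with probe sets of similar signal and the counts of states of opposite sign under other scalings were added after the data had been seen. A subunit was named if it passed any test, was among the 6 highest or lowest changes, the 4 highest or lowest WT states or the 3 highest or lowest genotype differences in a fraction, or was a paralogue of these, a core or a carbonic anhydrase-like subunit. Outside the subunits TIF3H1 and up to 2 genes per list with the smallest p for the change were named. The alternatives were quantile normalization, median centring, no signal filter, an offset of 32, no replicate block, the gradient as a block, no variance trend and leaving out each gradient.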

Additional observations from a re-analysis of the deposited data

Results flagged for a closer look

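For 6 of the 27 subunit mRNAs the translation state was negative in both WT gradients and positive in both eif3h gradients, so that every gradient of one genotype lay on one side of 0 and every gradient of the other on the opposite side. The difference between genotypes passed its own test (limma, replicate block) only for AT5G18800, with a change of 2.07. For the other 5 it did not pass: the change was 2.08 for AT3G48680 (GAMMA CAL2), 1.12 for AT4G02580, 1.03 for AT3G62790, 0.77 for AT2G20360 and 0.53 for AT3G57785. The same held for 3.22% of all tested probe sets. The position of 0 depends on the scaling of the arrays: the count was 5 of 27 after quantile normalization (4.12% of all), without AT3G57785, and 5 of 27 after median centring (7.49% of all), where 3 of the 6 were among them. In single WT gradients the state was as close to 0 as -0.0024 for AT4G02580, -0.0385 for AT3G57785 and -0.0937 for AT3G62790. With 2 arrays per group, single arrays that stand apart within a group could not be sought.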

How the results depend on the processing

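For the change of translation state, 1 subunit mRNA passed the test upward. The count was 0 after quantile normalization, without the signal filter, without the replicate block and without the variance trend, 2 after median centring, 4 with the gradient as a block and 6 by the study's fold rule, and 0 to 10 without single gradients. AT5G18800 was lost in the first 4 of these settings (adjusted p = 0.0772, 0.0731, 0.348 and 0.104). Relative to all tested probe sets the median change was 0.66, against 0.34 after quantile normalization, 0.76 without the filter, 0.64 with the offset and 0.64 to 0.77 without single gradients. For the state in WT the relative median was 0.11 after quantile normalization, 0.39 without the filter and 0.13 to 0.25 without single gradients, where 5 to 12 passed upward and 3 to 8 downward. For the state in eif3h it was 0.58, 1.22 and 0.95 to 1.18, and downward calls numbered 1 under the gradient block (3045 over all tested probe sets). Downward calls also appeared without eif3h replicate 1.

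In PL the count upward was 3 after quantile normalization, 5 without the filter or the variance trend, 0 without the replicate block and 1 to 19 without single gradients. The relative median was 0.51 after quantile normalization, 0.71 without the filter, 0.67 with the offset and 0.65 to 0.68 without single gradients. In NP the count upward was 7 after quantile normalization (931 over all tested probe sets). It was 0 after median centring (412) and without the replicate block (174), and 1 without the filter (736) or the variance trend (871). Without single gradients it moved as in PL. The NP relative median of -0.23 reversed to 0.0227 after quantile normalization, was -0.32 without the filter and spanned -0.22 to 0.0393 without single gradients, so that the direction in NP as a whole is not settled.

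Some single changes reversed. After quantile normalization they were -0.0191 for AT4G16450, -0.0881 for AT3G12260, -0.10 for AT1G14450, -0.0776 for AT4G20150, -0.12 for AT3G08610, -0.29 for AT5G52840 and -0.39 for AT2G31490, and after median centring 0.31 for AT2G27730 and 0.24 for AT1G76200. Without single gradients the values ran from -0.00669 to 0.51 for AT2G02050, -0.29 to 0.75 for AT1G14450, -0.00991 to 0.27 for AT3G08610, -0.11 to 0.30 for AT5G52840, -0.68 to 0.72 for AT2G31490, -0.34 to 0.36 for AT2G47690 and -0.36 to 0.25 for AT2G27730. The cause of these shifts was not tested. When an eif3h gradient was left out, the remaining spread came from WT alone, and more calls were made. When a WT gradient was left out, the spread came from eif3h alone. Because each subunit had 1 probe set, averaging probe sets gave no other value.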
